A study of Mus musculus with 2 samples.

Results

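The mouse mitochondrial genome carries 37 genes, and all 37 were present among the 43346 annotated genes of the deposited gene tables. They were chosen by symbol, as the genes whose GENCODE M21 name begins with mt-. Of these, 13 encode proteins of the respiratory chain, 2 ribosomal RNAs and 22 transfer RNAs. The rule used no measured value, but earlier results of these data were known when the members were chosen. The study sequenced RNA of liver from healthy B6NCrl mouse embryos at embryonic day 13.5, with males and females pooled. It holds 1 group of 2 libraries, biological replicates 1 and 2, each made from 10 ng of RNA longer than 200 nt with synthetic spike-in RNAs. There is no second condition, so every comparison here is between genes, or between the replicates. Both replicates carry the same donor entry under separate tissue samples, so each SD (n = 2) covers no more than the spread of these samples, which may be partly technical.

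The annotated genes held 39182457 estimated read counts in replicate 1 and 37432977 in replicate 2. The tissue label was checked against markers of the cells that make up the embryonic liver, which is a site of blood formation at this age. The liver genes Afp, Alb, Apoa2 and Trf stood between 1531 and 6807 TPM (transcript abundance per length, scaled to a fixed sum) over the replicates. The erythroid genes Hba-a1 and Hbb-bs stood between 50805 and 68505 TPM, and Alas2, the erythroid enzyme of heme synthesis, stood at 905 and 878 TPM. In such a mixture a change in the number of cells of a type and a change in RNA per cell cannot be told apart.

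Mitochondria keep a small circular genome, present in many copies per cell, whose protein genes all encode core subunits of the complexes that carry out oxidative phosphorylation. Both strands are transcribed by the polymerase Polrmt into long precursors, and transfer RNAs lying between the other genes are cut out to release the messenger and ribosomal RNAs. The heavy strand is the template for both ribosomal RNAs and for all protein genes except mt-Nd6, which is read from the light strand. Nuclear genomes also hold old insertions of mitochondrial DNA, and a read that falls in a recent insertion can match both places.

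Neighbouring mitochondrial genes are packed so closely that some share bases. The stretches below, from GENCODE M21 transcripts on GRCm38 (the sequence of mm10), show the overlaps in capitals, which are the bases that belong to both genes. The 3′ end of mt-Atp8 and the 5′ end of mt-Atp6, the subunit genes of ATP synthase, share 43 nt. The end of mt-Nd4l and the start of mt-Nd4, both for complex I, share 7 nt.
mt-Atp8 and mt-Atp6, chrM:7907-7989, plus strand: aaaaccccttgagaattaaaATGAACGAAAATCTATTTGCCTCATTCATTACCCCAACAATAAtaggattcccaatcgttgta
mt-Nd4l and mt-Nd4, chrM:10147-10193, plus strand: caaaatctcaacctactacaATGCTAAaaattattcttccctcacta
Both shared stretches open with the start codon of the downstream gene. A further 14 nt are shared by mt-Nd5 and mt-Nd6, which lie on opposite strands, and 1 nt by mt-Atp6 and mt-Co3. The sources used here do not say whether counting used strand, so reads from mt-Nd6 and from RNA of the opposite strand over the same bases could not be told apart.

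The transfer RNAs are the shortest members, and the shortest and the longest of them are printed to show their size.
mt-Ts2, a serine transfer RNA of 59 nt, chrM:11613-11671, plus strand: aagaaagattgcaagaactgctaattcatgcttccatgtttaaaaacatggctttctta
mt-Tl1, a leucine transfer RNA of 75 nt, chrM:2676-2750, plus strand: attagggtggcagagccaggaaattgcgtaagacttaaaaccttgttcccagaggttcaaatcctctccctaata
All 22 transfer RNA genes, 14 transcribed from the heavy strand template and 8 from the light, were listed at 0 expected counts in both replicates. The tables give each gene an effective length, its length less 99 nt, which is the number of start positions open to a 100-nt read. A gene of 99 nt or shorter has an effective length of 0, and none of the 2218 annotated genes with that value had a count in either replicate. The 0 of the mitochondrial transfer RNAs was therefore set by how the values were made, and it gives no upper limit on their RNA.

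The 15 ribosomal RNA and protein genes together held 720537 expected counts in replicate 1 and 590752 in replicate 2. These were 1.84% and 1.58% of the counts of annotated genes, a mean of 1.71% ± 0.184 (SD, n = 2). In TPM, which divides by effective length, they made up 2.48% and 2.43% of annotated genes, a mean of 2.45% ± 0.0361. The share was higher in replicate 1 on both scales, and by more in counts.

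Part of the mitochondrial signal could not be placed by sequence. On the minus strand of chromosome 1, 7 annotated pseudogenes between positions 24611535 and 24616197 (mm10) repeat the stretch of the mitochondrial genome from mt-Co1 to mt-Nd4, and 5 of the 15 mitochondrial genes have fewer than 3% of their 100-nt windows free of a match in an annotated nuclear transcript. These 5 are mt-Co2 with 3 unique windows of 585, mt-Atp6 with 3 of 582, mt-Co3 with 1 of 685, mt-Nd3 with 6 of 249 and mt-Nd4l with 3 of 198. A further 3 are covered in part, with 1000 of 1446 unique windows in mt-Co1, 502 of 1279 in mt-Nd4 and 909 of 939 in mt-Nd2. The remaining 7 genes, mt-Rnr1, mt-Rnr2, mt-Nd1, mt-Atp8, mt-Nd5, mt-Nd6 and mt-Cytb, have no window shared with an annotated nuclear transcript. Nuclear sequence outside annotated transcripts was not searched.

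The few bases that set genes and copies apart are in capitals in the next pairs, each printed along the sense strand of the gene. Within its aligned length the copy of mt-Co1, Gm29216, differs by A1066T, counted from 1 at the 5′ end of mt-Co1, where the first base is that of mt-Co1; the printed pair differs at 6 bases, of which the other 5 lie ahead of the aligned part. The copy of mt-Nd3, Gm28438, differs by T3C, counted in the same way. These bases are those of the reference, and those of the B6NCrl mice were not examined here, so a share of reads given to Gm28438 rests on the reference base. The copy of mt-Co3, Gm28437, holds no differing base and stops 1 base before the gene does.
mt-Co1, chrM:6381-6423, plus strand: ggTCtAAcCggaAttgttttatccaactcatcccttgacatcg
Gm29216, chr1:24616155-24616197, minus strand: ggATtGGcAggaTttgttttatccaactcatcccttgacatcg
mt-Nd3, chrM:9459-9491, plus strand: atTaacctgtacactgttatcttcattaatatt
Gm28438, chr1:24613087-24613119, minus strand: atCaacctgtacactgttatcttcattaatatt
mt-Co3 3′ end, chrM:9361-9390, plus strand: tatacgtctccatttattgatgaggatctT
Gm28437 3′ end, chr1:24613189-24613217, minus strand: tatacgtctccatttattgatgaggatct
Windows found in a copy and in no mitochondrial gene numbered 3 of 246 for Gm28438 and 13 of 393 for Gm29216, and 0 for the other 5 copies on chromosome 1. A read from those 5 copies could not be told from a mitochondrial read.

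The deposited estimates nevertheless divided the reads between genes and copies. Over all 15 nuclear copies found in the tables, the copies held 24.98% of the mitochondrial-type counts in replicate 1 and 22.8% in replicate 2, a mean of 23.9% ± 1.56. The chromosome 1 copies had nearly all of it, with 239845 counts in replicate 1 and 174169 in replicate 2, while none of the 8 copies elsewhere passed 31.5 counts. The split differed from gene to gene with no common ratio.

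**Figure D1:**
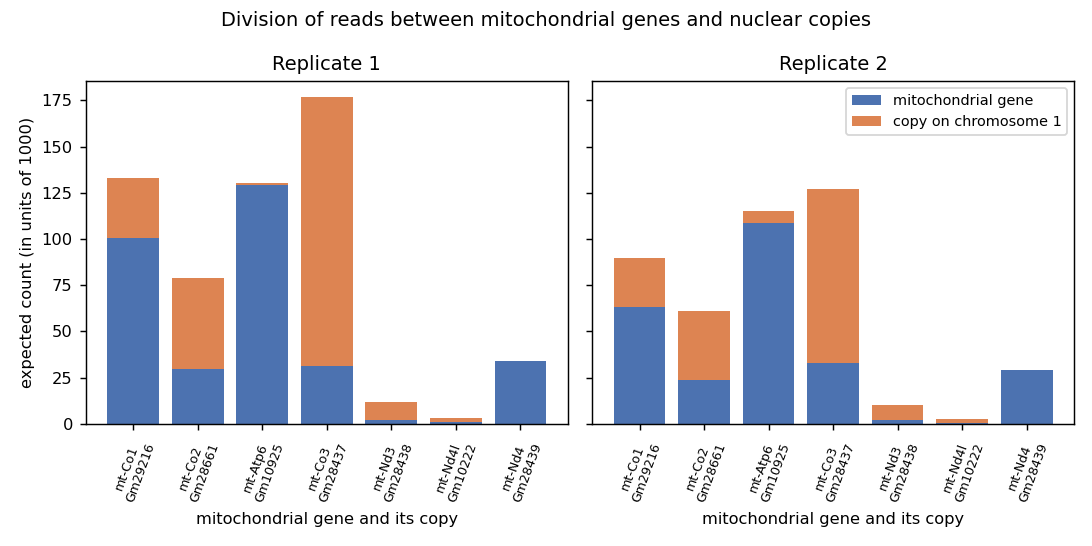
Expected counts, in units of 1000, of 7 mitochondrial genes (blue) and of their copy on chromosome 1 (orange, stacked on top), with 1 panel per replicate. Most of the mt-Co3 column and about 3 in 5 reads of the mt-Co2 column lie in the copy, while mt-Atp6 and mt-Nd4 keep nearly all of theirs.

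Gm28437 received 82.3% of the reads of the mt-Co3 pair in replicate 1 and 74.3% in replicate 2. For mt-Nd3 the copy Gm28438 took 80.9% and 77.6%, for mt-Nd4l the copy Gm10222 took 71.2% and 84.3%, and for mt-Co2 the copy Gm28661 took 62.1% and 61.2%. In these 4 pairs the nuclear pseudogene was given more expected counts than the mitochondrial gene in both replicates. By posterior mean counts the order was reversed for mt-Co2, at 39617 and 32258 beside 39236 and 28648 for Gm28661. The order was kept in the other pairs. Gm29216 held 24.6% and 29.4% of the mitochondrial-type reads of mt-Co1, whose whole length it does not cover. Gm10925, a copy without a mismatch like Gm28437, was given 0.933% and 5.32% of the reads of mt-Atp6, and Gm28439, also without a mismatch, was given 0 counts beside mt-Nd4 in both replicates. By expected counts, copies without a mismatch thus took anything from 0 to 84.3% of the reads of their pair. By posterior mean counts Gm10925 held more, 15443 and 19700, beside 115008 and 95269 for mt-Atp6. Its posterior SD was 10859 and 11973 counts.

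The tables carry a posterior SD for each count, which gives its spread under the model that made the estimates. It was 0.03 counts or less for all 7 genes with no shared window. For mt-Co3 it was 41873 counts in replicate 1 and 30712 in replicate 2, which is 67.2% and 62.2% of the posterior mean count. The corresponding values were 53.6% and 49.3% for mt-Nd4l, 35.2% and 32.1% for mt-Co2, 14.1% and 14.2% for mt-Nd3, and 9.44% and 12.6% for mt-Atp6. For mt-Nd2, mt-Co1 and mt-Nd4, which keep many unique windows, it was at most 0.192%. A small posterior SD does not settle where the reads came from. For mt-Co1 it was 144 and 122 counts, beside 32773 and 26320 counts given to Gm29216. Only 13 of the 393 windows of that copy are absent from the mitochondrial genes.

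**Figure D2:**
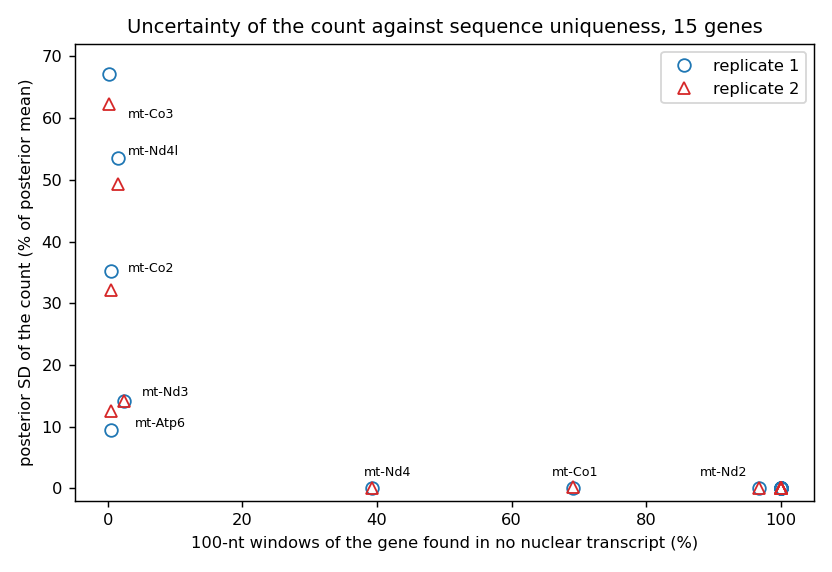
Posterior SD of each count as a percent of its posterior mean (vertical axis) against the percent of 100-nt windows with no match in a nuclear transcript (horizontal axis), for 15 genes in 2 replicates. The 5 genes with fewer than 3% unique windows lie between 9.44% and 67.2%, and the other 10 lie at or below 0.192%.

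The authors' credibility interval for mt-Co3 ran from 684 to 5286 TPM in replicate 1 and from 736 to 4161 TPM in replicate 2. That of mt-Cytb, a gene with no shared window, ran from 1506 to 1530.2 TPM and from 1507 to 1533 TPM. These intervals surround the posterior mean TPM, 1518 and 1519.9 for mt-Cytb and 2366 and 2083 for mt-Co3, a second deposited estimate that differs from the TPM used for levels below. Levels are therefore given below both as assigned and with the reads of the copies added to the mitochondrial gene they match. A sum of this kind counts any true nuclear transcript of a copy as mitochondrial.

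As assigned, the level per length fell into a broad range from mt-Atp6, a proton-channel subunit of ATP synthase at 5682 ± 257 TPM, to mt-Nd4l, a small membrane subunit of complex I at 86.2 ± 43.2 TPM. By mean TPM, the order after mt-Atp6 was mt-Atp8, mt-Rnr2, mt-Nd1, mt-Co1, mt-Cytb, mt-Co3, mt-Co2, mt-Rnr1, mt-Nd4, mt-Nd2, mt-Nd6, mt-Nd3, mt-Nd5 and mt-Nd4l. Several neighbours in that order did not differ beyond their spread. The replicate values of mt-Co1 overlapped those of mt-Cytb, mt-Co3 and mt-Co2, those of mt-Rnr1 overlapped those of mt-Nd4, and those of mt-Nd3 overlapped those of mt-Nd5.

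**Figure D3:**
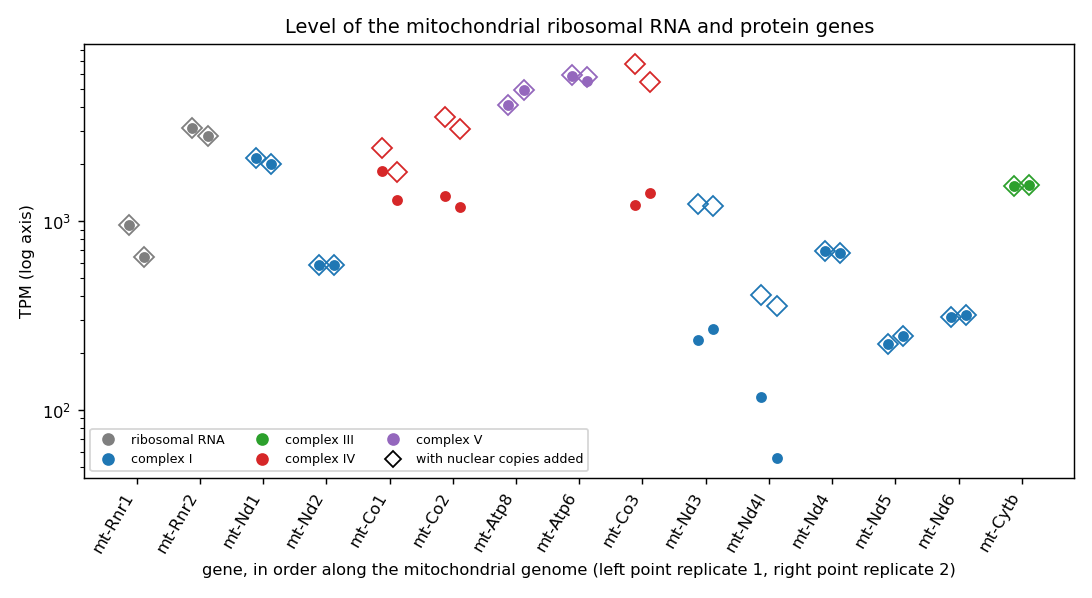
TPM (log axis) of the 15 ribosomal RNA and protein genes in their order along the genome, as assigned (filled, colour by complex) and with nuclear copies added (open diamonds). Adding the copies lifts mt-Co3 from 1307 ± 139 to 6138 ± 951 TPM and mt-Nd3 from 252 ± 23.0 to 1216 ± 24.8 TPM, and leaves genes without shared windows in place.

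The ribosomal RNA genes encode the RNA of the mitochondrial ribosome. mt-Rnr1 (ENSMUSG00000064337.1, chrM:70-1024, the small-subunit RNA) had a level of 956 TPM in replicate 1, against 645 TPM in replicate 2. mt-Rnr2 (ENSMUSG00000064339.1, chrM:1094-2675, the large-subunit RNA) stood at 3099 and 2826 TPM. The large-subunit RNA was higher in both replicates, by 3.24-fold and 4.38-fold in TPM. Both genes lie on the same precursor with only mt-Tv, a transfer RNA gene, between them, and the ribosome holds 1 of each. Together they held 28.5% and 27.3% of mitochondrial counts, a mean of 27.9% ± 0.819. The sources used here do not say whether ribosomal RNA was depleted. The median log2 count per nt of the ribosomal genes lay 0.43 ± 0.21 above that of the 13 protein genes as assigned, against 0.16 in replicate 1 and -0.19 in replicate 2 with the copies added (mean -0.013 ± 0.25), so with the copies no direction was shared by the replicates.

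Complex I, the NADH dehydrogenase, takes 7 of its subunits from the mitochondrial genome, and these were the lowest protein genes as a group. mt-Nd1 (ENSMUSG00000064341.1, chrM:2751-3707) was the exception, at 2151 and 2014 TPM. The other membrane subunits mt-Nd2 (ENSMUSG00000064345.1, chrM:3914-4951) and mt-Nd4 (ENSMUSG00000064363.1, chrM:10167-11544) stood at 584.0 and 584.9 TPM and at 698 and 676 TPM. mt-Nd5 (ENSMUSG00000064367.1, chrM:11742-13565), the longest gene, stood at 223 and 247 TPM. These 4 genes keep at least 39.2% of their windows unique, and nearly all of their reads were assigned to them, so their order is the same with the copies added. mt-Nd1 exceeded mt-Nd2 by 3.68-fold and 3.44-fold in TPM.

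The small subunits mt-Nd3 (ENSMUSG00000064360.1, chrM:9459-9806) and mt-Nd4l (ENSMUSG00000065947.3, chrM:9877-10173) depend on the copies. mt-Nd3 stood at 235 and 268 TPM as assigned and at 1233 and 1198 TPM with its copy added. mt-Nd4l stood at 117 and 55.7 TPM as assigned and at 405 and 354 TPM with its copy. The replicates of mt-Nd4l thus differed widely as assigned and less with the copy. mt-Nd4l and mt-Nd4 lie on one stretch of RNA, and mt-Nd4l was at 0.167-fold and 0.0823-fold of mt-Nd4 in TPM as assigned, against 0.581-fold and 0.524-fold with the copies. Over all 7 genes the highest exceeded the lowest by 18.4-fold and 36.2-fold as assigned, and by 9.65-fold and 8.14-fold with the copies added.

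mt-Nd6 (ENSMUSG00000064368.1, chrM:13552-14070), the only protein gene read from the light strand, stood at 312 and 317 TPM, a mean of 314 ± 3.90. The 12 heavy-strand protein genes had a median log2 count per nt 2.12 ± 0.017 above that of mt-Nd6, and 2.65 ± 0.080 above it with the copies added. mt-Nd6 was not the lowest protein gene: mt-Nd3, mt-Nd5 and mt-Nd4l lay below it in both replicates as assigned, and only mt-Nd5 did with the copies added. Its partner across the 14-nt overlap, mt-Nd5, was at 0.715-fold and 0.780-fold of mt-Nd6 in TPM. So the heavy-strand genes did not share one level, and the light-strand gene lay inside their range.

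mt-Cytb (ENSMUSG00000064370.1, chrM:14145-15288) is the only mitochondrial subunit of complex III. It stood at 1541 and 1546 TPM, with no shared windows and a posterior SD of 0. On the log2 count per nt it lay 2.47 ± 0.015 above the median of complex I, and 1.42 ± 0.0013 above it with the copies added. The gene at the middle of complex I in TPM was mt-Nd6 as assigned and mt-Nd2 with the copies, so the smaller difference reflects complex I, while mt-Cytb itself did not move. The same middle gene is the complex I median in the contrasts with complexes IV and V and with nuclear subunits below. As assigned, these contrasts thus share mt-Nd6 with the strand contrast and are not independent of it.

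Complex IV, cytochrome c oxidase, has its catalytic core encoded by mt-Co1 (ENSMUSG00000064351.1, chrM:5328-6872), mt-Co2 (ENSMUSG00000064354.1, chrM:7013-7696) and mt-Co3 (ENSMUSG00000064358.1, chrM:8607-9390). As assigned, mt-Co1 stood at 1835 and 1285 TPM, mt-Co2 at 1349.6 and 1188 TPM, and mt-Co3 at 1209 and 1405 TPM. Their ranges overlapped, and the highest exceeded the lowest by 1.52-fold and 1.18-fold. With the copies added they came apart, with mt-Co1 at 2434 and 1821 TPM, mt-Co2 at 3560.1 and 3062.5 TPM, and mt-Co3 at 6811 and 5465 TPM. The highest then exceeded the lowest by 2.80-fold and 3.002-fold, and in TPM mt-Co1 had gone from above mt-Co2 in both replicates to below it in both. By posterior mean TPM without the copies, mt-Co1 stood at 1808 and 1263, mt-Co2 at 1762 and 1594, and mt-Co3 at 2366 and 2083. On that estimate mt-Co1 was already below mt-Co2 in replicate 2, and mt-Co3 was the highest in both replicates. The median of complex IV lay 2.21 ± 0.024 above that of complex I on log2 counts per nt as assigned, and 2.42 ± 0.16 with the copies. Without the protein genes under 400 nt, which takes mt-Nd3 and mt-Nd4l out of complex I, it lay 1.16 above as assigned.

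Complex V, the ATP synthase, takes mt-Atp8 (ENSMUSG00000064356.3, chrM:7766-7969) and mt-Atp6 (ENSMUSG00000064357.1, chrM:7927-8607) from one messenger RNA whose coding parts share the 43 nt shown above. mt-Atp8 stood at 4137 and 4927 TPM and mt-Atp6 at 5863 and 5499.6 TPM, so mt-Atp6 was higher in both on this estimate, with mt-Atp8 at 0.706-fold and 0.896-fold of it. By posterior mean TPM mt-Atp8 stood at 4075 and 4845 and mt-Atp6 at 5140 and 4733, so the order was reversed in replicate 2. The effective length of mt-Atp8 is 105 nt of its 204 nt, so its TPM is sensitive to the length used. mt-Atp8 shares no window with an annotated nuclear transcript, so adding the copies did not move its level. It lies within the stretch repeated on chromosome 1, where bases between the annotated copies were not searched. mt-Co3, which follows mt-Atp6 with 1 shared base, was at 0.206-fold and 0.256-fold of mt-Atp6 as assigned. With the copies it was at 1.15-fold and 0.941-fold, so 3 consecutive genes then lay between 4137 and 6811 TPM in both replicates. The median of complex V lay 3.72 ± 0.039 above that of complex I on log2 counts per nt as assigned and 2.69 ± 0.078 with the copies.

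The replicates were compared by the log2 ratio of counts, replicate 2 over replicate 1, after TMM scaling, which sets the bulk of genes to no change. With 1 library per replicate there is no test, and the intervals given cover counting error only. Of 15 genes, 12 had a ratio below 0 as assigned, with a median of -0.20 beside -0.00060 over all 15997 genes averaging 10 or more counts. With copies added 14 of 15 were below 0. With a limit of 0.32 on the size of the log2 ratio, 4 of the 15 were lower in replicate 2, as were 11.6% of all genes tested, and 0 of the 15 were higher, as were 9.41% of all genes.

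mt-Rnr1 went from 30985 to 18773 counts, a log2 ratio of -0.72 (counting interval -0.75 to -0.70). mt-Co1 went from 100479 to 63187 counts, a log2 ratio of -0.67 (-0.68 to -0.66), and was at -0.57 with its copies added. Both of these lie beyond the 5th percentile of all genes tested, at -0.57. mt-Co2 had a log2 ratio of -0.34 (-0.36 to -0.32) and -0.37 with its copies. mt-Nd4l, at 876 and 375 counts, had the lowest ratio as assigned, -1.22 (-1.40 to -1.05), and -0.35 with its copies, beside a posterior SD of 629 and 230 counts. mt-Co3 moved the other way, from 0.062 as assigned to -0.47 with its copies. Thus 5 of the 15 genes passed the limit downward once copies were added, beside 11.6% of all genes tested. Under either treatment and on TPM, mt-Rnr1 and mt-Co1 were lower in replicate 2. The same held for mt-Rnr2, mt-Nd1, mt-Co2, mt-Atp6, mt-Nd4l and mt-Nd4.

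**Figure D4:**
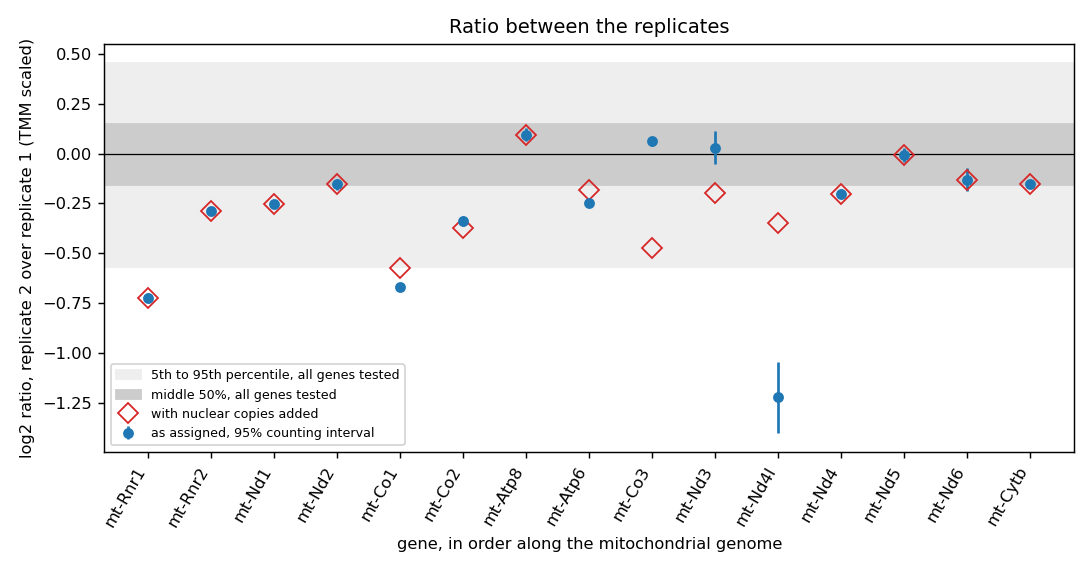
Log2 ratio of counts, replicate 2 over replicate 1 after TMM scaling, of the 15 genes as assigned (blue, with 95% counting interval) and with nuclear copies added (red diamonds). The grey bands hold the middle 50% (dark) and the 5th to 95th percentile (light, -0.57 to 0.46) of 15997 genes; mt-Rnr1, mt-Co1 and mt-Nd4l lie below the light band as assigned.

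The lower level in replicate 2 depends on the scale. Scaling by spike-in RNAs put 15 of 15 genes below 0, but it also moved the median of all genes tested by -0.56. On TPM, which moved that median by 0.14, 8 of 15 genes were below 0 and the median of the 13 protein genes was 0.0023, against -0.15 after TMM scaling. Within each library the difference between mt-Rnr1 and the genes near 0, such as mt-Nd5 at -0.0060 and mt-Atp8 at 0.096, does not depend on scaling.

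Most subunits of the same complexes are encoded in the nucleus and made in the cytosol. The nuclear lists were set against the mitochondrial genes by median TPM. For complex I the mitochondrial median exceeded that of 7 nuclear core subunits by 2.09-fold ± 0.0316 as assigned and by 3.88-fold ± 0.0152 with copies. Ndufs7, Ndufv2 and Ndufv1 were the highest of these, at 240.4 ± 34.4, 218 ± 1.48 and 155 ± 3.45 TPM, and Ndufs8 and Ndufs1 the lowest, at 141 ± 14.5 and 116 ± 11.6 TPM. The nuclear list spans a narrower range than the mitochondrial genes of the same complex. As assigned, mt-Nd1, mt-Nd2, mt-Nd4 and mt-Nd6 lay above every listed nuclear subunit in both replicates. mt-Nd4l as assigned lay below them all in replicate 2, while in replicate 1, at 117 TPM, it lay above Ndufs1 at 108 TPM.

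For complex III, mt-Cytb exceeded the median of 9 nuclear subunits by 4.67-fold ± 0.00552. The highest of these were Uqcr10, Uqcrq and Uqcr11 at 632 ± 25.2, 573 ± 37.8 and 483 ± 83.4 TPM, and the lowest Uqcrfs1, the Rieske iron-sulfur protein, and Uqcrc2 at 190.4 ± 3.80 and 159.8 ± 17.9 TPM. Each of the 9 lay below mt-Cytb. In complex IV the median of the mt-Co genes exceeded that of 10 nuclear subunits by 2.46-fold ± 0.267, and by 6.21-fold ± 1.11 with copies. Cox6b1, Cox4i1 and Cox6a1 led that list at 759.9 ± 38.7, 724 ± 4.09 and 686 ± 40.4 TPM, and Cox5a and Cox7b closed it at 353 ± 10.6 and 282 ± 28.6 TPM. Again no listed nuclear subunit reached the lowest mitochondrial one.

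For complex V the mitochondrial median exceeded that of 15 nuclear subunits by 12.4-fold ± 0.916. Atp5b, the catalytic beta subunit, stood far above the rest at 1929 ± 98.8 TPM, followed by Atp5g3 and Atp5a1 at 792 ± 47.9 and 688 ± 55.3 TPM. Atp5l and Atp5g2 were the lowest at 127 ± 1.64 and 95.9 ± 5.42 TPM. The mitochondrial excess was thus present in each complex on medians, as assigned and with copies, and its size in complexes I and IV depended on the copies.

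**Figure D5:**
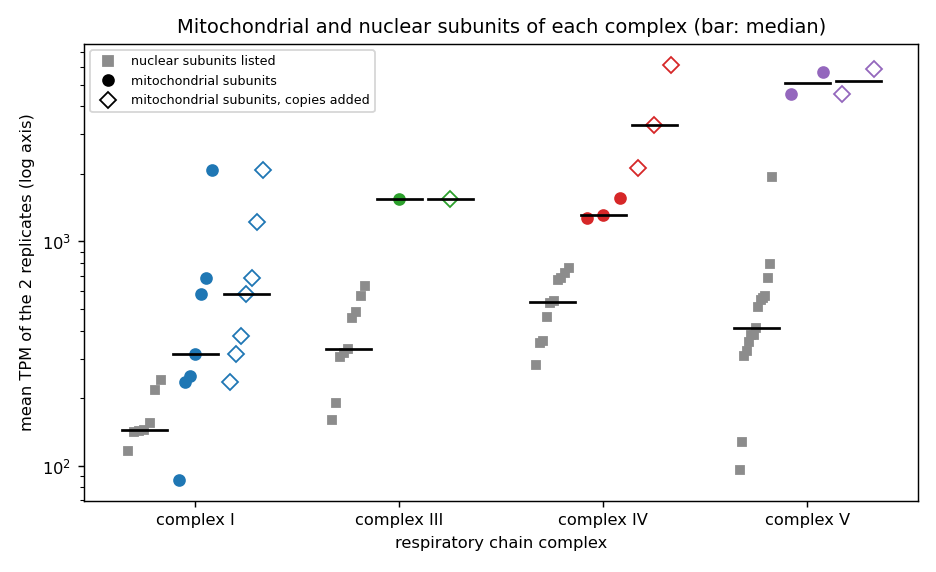
Mean TPM of 2 replicates (log axis) of the listed nuclear subunits (grey squares), the mitochondrial subunits as assigned (filled circles) and with nuclear copies added (open diamonds), by complex, with the median as a bar. The mitochondrial median is higher in all 4 complexes, by 2.09-fold in complex I and 12.4-fold in complex V as assigned.

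Between the replicates, the nuclear subunit lists had median log2 ratios of -0.16 for complex I, -0.16 for complex III, -0.14 for complex IV and -0.15 for complex V, beside -0.15 for the 13 mitochondrial protein genes. Of the listed nuclear subunits, Ndufs7, Ndufs8 and Uqcr11 were past the limit and lower in replicate 2, at -0.45, -0.37 and -0.51, which is 3 of 41 beside 11.6% of all genes tested, and 0 were past it and higher, beside 9.41%. After TMM scaling the lists from both genomes thus had medians below 0, and on TPM the same medians were 0.014, -0.021, 0.0056 and 0.0068 for the nuclear lists, beside 0.0023 for the mitochondrial genes.

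The 7 lists of nuclear genes that copy, cut, stabilise and translate mitochondrial RNA had medians between 11.8 and 37.5 TPM, below every one of the 15 mitochondrial genes as assigned, and each listed gene reached at least 1 TPM in both replicates. The 11 transcription genes had a median of 16.8 ± 1.98 TPM. Mrpl12, a ribosomal protein that also binds the polymerase, led with 130.4 ± 4.15 TPM, followed by Tfam, the protein that packages mitochondrial DNA, at 53.2 ± 5.98 TPM and Mterf3 at 29.0 ± 6.01 TPM. Mterf2 and Mterf1b were the lowest at 5.95 ± 1.26 and 2.33 ± 0.0566 TPM. The 10 genes of mitochondrial DNA replication had a median of 11.8 ± 0.686 TPM, from Ssbp1, the single-strand binding protein, at 87.0 ± 7.09 TPM, Dna2 at 29.98 ± 4.72 TPM and Rnaseh1 at 12.9 ± 0.417 TPM down to Primpol at 9.77 ± 1.22 TPM and Polg2, the accessory subunit of the DNA polymerase, at 5.12 ± 0.276 TPM.

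Genes that free the RNAs from the precursor and finish their 3′ ends had a median of 20.2 ± 1.87 TPM over 6 genes. Hsd17b10, a subunit of the enzyme that cuts the 5′ end of transfer RNAs, stood at 90.3 ± 1.23 TPM, Trnt1, which adds the terminal CCA, at 47.2 ± 5.41 TPM, and Elac2, which cuts the 3′ end of transfer RNAs, at 20.6 ± 1.11 TPM. Mtpap, the poly(A) polymerase, stood at 16.8 ± 2.93 TPM and 1110008L16Rik, an older symbol of Prorp, at 8.51 ± 0.665 TPM. The 16 genes of RNA stability and decay had the highest median of the expression lists apart from ribosomal proteins, 37.5 ± 5.16 TPM. Slirp, which with its partner Lrpprc stabilises messenger RNAs, stood at 206 ± 3.65 TPM, Rexo2 at 134 ± 6.44 TPM and Ptcd3 at 66.4 ± 9.98 TPM, while Ptcd1 and Fastkd1 stood at 8.06 ± 0.488 and 4.52 ± 1.22 TPM.

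The 14 genes that modify transfer and ribosomal RNA had a median of 12.3 ± 0.0141 TPM, with Nsun2, Pus1 and Mrm3 highest at 132 ± 14.1, 35.6 ± 0.226 and 22.4 ± 0.693 TPM, and Gtpbp3 and Nsun3 lowest at 6.32 ± 0.318 and 4.42 ± 0.870 TPM. The 12 translation factors had a median of 16.9 ± 0.198 TPM, with the elongation factors Tufm, Tsfm and Gfm1 at 98.9 ± 2.18, 63.3 ± 6.07 and 43.1 ± 5.44 TPM highest and the release factor genes Mtrf1l and Mtrf1 lowest at 6.41 ± 0.156 and 5.42 ± 0.714 TPM. Both lists lay within a range of median level shared with transcription and DNA replication. The 77 mitochondrial ribosomal protein genes had a median of 76.9 ± 1.80 TPM, from Mrpl17, Mrps14 and Mrps21 at 277 ± 12.6, 232 ± 2.74 and 231 ± 0.658 TPM down to Mrpl11 and Mrpl23 at 17.8 ± 2.00 and 15.8 ± 0.467 TPM. Mrps24, at -0.33, was the only 1 of the 77 past the limit between replicates. Of all genes tested, 11.6% were past it and lower in replicate 2, and 9.41% were past it and higher. Each of these protein genes lay below mt-Rnr1 and mt-Rnr2, the RNAs of the same ribosome.

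The 22 genes listed for the charging of mitochondrial transfer RNAs are synthetases, apart from Gatb, Gatc and Qrsl1, which encode the amidotransferase that completes glutamine charging. They had a median of 15.4 ± 1.01 TPM. Lars2, the leucine synthetase, stood apart at 667 and 525 TPM, and was lower in replicate 2 by a log2 ratio of -0.50. Gars and Kars, which also serve the cytosol, followed at 131 ± 7.23 and 117.5 ± 7.78 TPM, and Mars2 and Wars2 closed the list at 2.79 ± 0.0990 and 2.68 ± 0.106 TPM. Over the 7 expression lists without ribosomal proteins, 3 genes were past the limit and higher in replicate 2, namely Fastkd1, Nsun3 and Gatc at 0.44, 0.44 and 0.38, and Lars2 was the only one past it and lower; these are 3 and 1 of 91 genes, beside 9.41% and 11.6% of all genes tested. The median log2 ratios of these lists lay between -0.058 and 0.045 after TMM scaling and between 0.062 and 0.20 on TPM.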

How the data were processed

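Expected counts (estimated reads per gene) and TPM, with posterior means, SDs and credibility bounds, were deposited by the authors in 1 gene table per library. Per the file headers and readme texts they were made from transcriptome alignments on mm10 with GENCODE M4 genes; which aligner and quantification tool were used, and whether strand was, is not given in the sources here. Members were matched to GENCODE M21 by gene ID. Nuclear copies were nuclear transcripts matching the mitochondrial genes with blastn 2.17.0 at 90% identity or more over 80% or more of their length. Shared 100-nt windows were searched in all M21 transcripts on both strands, which may differ from M4. Counts were rounded for scaling only, with TMM (edgeR 4.0.16) or DESeq2 1.42.0 size factors, over genes averaging 10 or more counts; ratios used a pseudocount of 0.5. The ratio calculation was tested on simulated data. Ratio intervals are exact binomial at 95%. No hypothesis was tested. Contrasts between complexes used log2 counts per nt of annotated length. Named were all 15 ribosomal and protein genes, nuclear copies with at least 100 counts, and the 3 highest and 2 lowest genes of each nuclear list; Gm28439, the other listed genes past a log2 ratio of 0.32 and Lrpprc, an aside without a value, were named after values were seen. Members and lists were chosen with earlier results of these data known, and the ribosomal protein list was added later by symbol pattern. Alternatives were other scalings, filters, length scales, estimates, copy criteria and denominators, and each replicate left out. Transcript tables were not used, since each mitochondrial gene has 1 transcript.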

Additional observations from a re-analysis of the deposited data

How the results depend on the processing

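With 2 replicates, leaving out 1 gives the value of the other, which cannot lie further from the mean than the SD, so it is no check of stability. On the deposited TPM the log2 contrasts became 2.00 for the heavy over the light strand, 2.07 for complex IV, 4.01 for complex V and 2.30 for mt-Cytb over complex I, and for mitochondrial over nuclear subunits 1.06, 1.30 and 3.62 in complexes I, IV and V. On the posterior mean TPM they were 2.28, 2.46, 3.92 and 2.29, then 1.06, 1.68 and 3.53, with 0.12 for ribosomal over protein genes, and the copies held 21.7% of mitochondrial-type counts by posterior mean counts. With copy counts added they were 2.65, 2.42, 2.69 and 1.42, then 1.94, 2.70 and 3.28, and ribosomal over protein genes had a mean of -0.013, from 0.16 in replicate 1 and -0.19 in replicate 2; the copies add reads to protein genes only. An alternative chosen after seeing the data, copies added per effective length, gave 2.47, 2.498, 3.14 and 1.40, then 1.96, 2.62 and 3.65, and -0.018 for the ribosomal contrast (0.16 and -0.20 in the replicates). Without the protein genes under 400 nt the first 3 contrasts were 2.21, 1.16 and 3.20. With copies added, the mitochondrial share was 2.25% of gene counts and 3.36% of gene TPM, and ribosomal RNA was 21.2% of mitochondrial counts. Without globin genes in the denominator the shares were 2.02% and 3.66%, and with all entries in it the TPM share was 2.39%. The median log2 ratio between replicates of the protein genes was -0.087 by total counts, -0.72 by spike-ins and -0.20 with copies added, and reversed to 0.0023 on TPM; the cause of the last was not tested. DESeq2 size factors, another count filter and a pseudocount of 5 moved none of these results beyond their spread or counting interval. Other identity and coverage limits could hardly move the share of the copies, so they are no check of it. Every copy matched over at least 98.17% of its length. The chromosome 1 copies, with 99.97% of copy counts, matched at 99.71% identity or more. The lowest count was 375, for mt-Nd4l in replicate 2, where the posterior SD was 49.3% of the posterior mean; for the 5 genes nearly without unique windows the division of reads goes with a posterior SD of 9.44% or more.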

Other observations

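Over the 13 protein genes, mean log2 level per length as assigned had a Spearman's rho of -0.016 and a Pearson's r of -0.16 with GC content, 0 and -0.0050 with length, and, over the 12 heavy-strand genes, -0.43 and -0.31 with position along the genome. With copies added the 3 pairs of values were 0.10 and -0.0087, -0.20 and -0.28, and -0.37 and -0.27. GC content ran against the log2 ratio between replicates over 15 genes as assigned, with rho -0.48 and r -0.59, and this was not computed with copies added. mt-Nd4l, with the highest GC content of the 15 at 41.1%, had the lowest ratio, -1.22, against -0.35 with its copies. All points share the same 2 libraries, and these values are descriptions across genes, which are not independent replicates.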
